A study of Mus musculus with 6 samples.

Results

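Neurotrophins are secreted growth factors that signal to developing neurons through 2 kinds of receptor. The Trk receptors are tyrosine kinases that bind the mature ligands, whereas p75NTR binds all neurotrophins and partners with sortilin to bind their uncleaved precursors. Truncated Trk receptors without the kinase domain are made from the same genes by alternative splicing and are known to bind ligand without starting kinase signalling. The 6 genes described here are *Bdnf* and *Ntf3*, which encode the ligands BDNF and NT-3, *Ntrk2* and *Ntrk3*, which encode their receptors TrkB and TrkC, *Ngfr*, which encodes p75NTR, and *Sort1*, which encodes sortilin, a sorting receptor that also carries BDNF inside the cell. They were chosen by name and are 6 of the 52230 genes summed from the transcript tables, with 48 of the 139225 transcripts listed.

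RNA was measured in hippocampi of P0 mice by stranded mRNA sequencing, in 3 *Mov10* Deletion libraries and 3 WT libraries, each from hippocampi pooled over pups. MOV10 is an RNA helicase that acts with Argonaute and FMRP on bound mRNAs. The *Mov10* Deletion mouse came from crossing a conditional line, in which *Emx1*-Cre removes *Mov10* exons between loxP sites, with a line heterozygous for a *Mov10* mutation. *Emx1*-Cre acts in the forebrain progenitors that give rise to excitatory neurons and to glia. Cells of other origin, such as interneurons, therefore do not lose the floxed exons. The mutant allele from the heterozygous line does not depend on Cre, so cells of either origin carry it. WT mice were C57BL/6 and carried no targeted allele.

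The libraries held between 71400300 and 86207971 estimated counts (Salmon). *Mov10* itself had 2.45, 2.14 and 2.09 CPM, counts scaled to library size, in *Mov10* Deletion, against 4.81, 4.75 and 4.80 CPM in WT, a log2 fold change of -1.11 (SE 0.10, limma-trend adjusted p = 0.00118). The markers of pyramidal and granule neurons summed to between 2948 and 3184 CPM in *Mov10* Deletion and between 2732 and 2828 CPM in WT. Much of this sum was 1 gene, *Zbtb20*, with 1486 to 1771 CPM in *Mov10* Deletion and 1307 to 1356 CPM in WT. The sum shows that RNA of these markers was present in all 6 libraries, and no more about the tissue. *Mov10* Deletion replicate 1 stood apart in markers of meningeal fibroblasts, with a sum of 348 CPM against 99.0 to 155 CPM in the other 5 libraries, and in markers of choroid plexus, with 51.3 CPM against 2.44 to 16.4 CPM. The pools also differed in the sexes of their pups: *Xist* had 0.184, 888 and 1.57 CPM in *Mov10* Deletion, against 182, 251 and 643 CPM in WT.

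Of the 6 genes, *Ntrk2* was higher and *Ntf3* was lower in *Mov10* Deletion, both by small amounts, and the other 4 were not called. A call is a Benjamini-Hochberg adjusted p under 0.05 in the limma-trend fit over all 16745 genes tested, with 2 factors of unwanted variation beside genotype. All 6 genes passed the filter on low counts. In that fit 24.8% of all tested genes were called, 12.6% higher and 12.2% lower, so 2 of 6 is near the background share. The CPM of the groups did not overlap for *Ntrk2*, *Ntf3* and *Sort1*, 3 of 6 genes, and they did not overlap for 41.6% of all tested genes. In whole tissue, fewer cells of a type and less RNA per cell cannot be told apart.

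**Figure D1:**
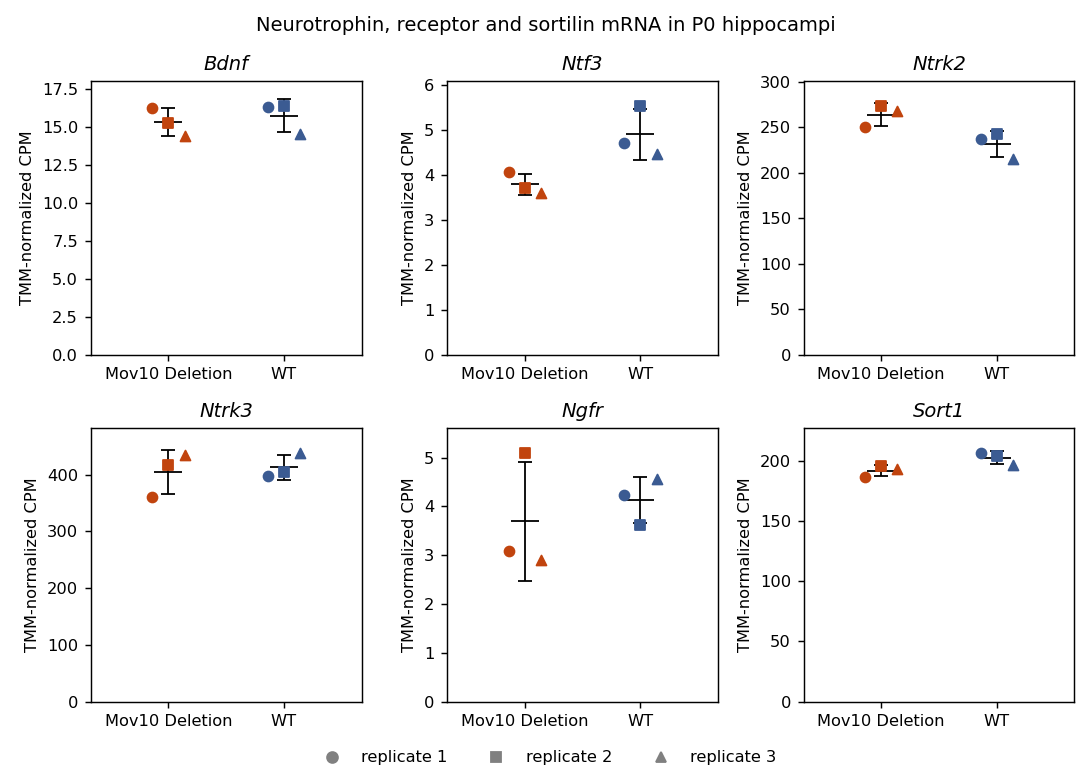
TMM-normalized CPM of the 6 genes in each library, *Mov10* Deletion at left and WT at right in each panel, with the 3 libraries of a group as symbols and the mean ± SD as a black bar. All *Mov10* Deletion libraries lie above all WT libraries for *Ntrk2* and below them for *Ntf3* and *Sort1*, and the groups overlap for *Bdnf*, *Ntrk3* and *Ngfr*.

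Levels between genes were compared in TPM, which correct for transcript length. *Ntrk3* had the highest mean level, 80.0 ± 8.91 TPM in *Mov10* Deletion and 83.1 ± 3.70 TPM in WT (mean ± SD of 3 libraries). *Ntrk2* followed with 78.0 ± 3.44 TPM in *Mov10* Deletion and 68.4 ± 6.95 TPM in WT, and *Sort1* with 59.5 ± 1.42 TPM in *Mov10* Deletion and 61.9 ± 3.27 TPM in WT. Neighbours in this order were not always separated: in *Mov10* Deletion the libraries overlapped for *Ntrk3* and *Ntrk2*, and in WT they overlapped for *Ntrk2* and *Sort1*. The ligands were scarcer, with *Bdnf* at 10.6 ± 0.496 TPM in *Mov10* Deletion and 11.0 ± 0.988 TPM in WT and *Ntf3* at 6.53 ± 0.419 TPM in *Mov10* Deletion and 8.41 ± 1.04 TPM in WT. *Ngfr* was lowest, at 1.92 ± 0.594 TPM in *Mov10* Deletion and 2.12 ± 0.225 TPM in WT. The libraries of *Bdnf*, *Ntf3* and *Ngfr* did not overlap with each other in either genotype.

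The ligand NT-3 is the preferred ligand of TrkC. Its gene *Ntf3* (chromosome 6, 126078375 to 126143873, minus strand, where this and all later positions are GENCODE M39 on GRCm39) had 4.05, 3.71 and 3.60 CPM in *Mov10* Deletion, against 4.70, 5.53 and 4.46 CPM in WT. Every *Mov10* Deletion library was below every WT library. Its log2 fold change was -0.39 (SE 0.11, limma-trend adjusted p = 0.0351), a fold of 0.762 with a 95% interval of 0.641 to 0.907. Each library held between 257 and 418 estimated counts of *Ntf3*. The call was lost without WT replicate 2, the highest library (log2 fold change -0.30, adjusted p = 0.123), and without *Mov10* Deletion replicate 3 (-0.37, adjusted p = 0.0540). In the fit without factors the call held only without *Mov10* Deletion replicate 1, among fits that leave out 1 library. With a score for the sex of the pups in place of the factors the log2 fold change was -0.40 and the adjusted p 0.112, in the same limma-trend fit.

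*Ntf3* is transcribed from 2 alternative first exons. Its 3 transcripts share 1 stop codon and encode 258 or 271 residues. The transcript that starts at 126141946 carried most of the counts, with 3.70, 3.51 and 3.37 CPM in *Mov10* Deletion, against 4.39, 5.26 and 3.99 CPM in WT. The transcripts that start at 126143873 together had 0.356, 0.199 and 0.230 CPM in *Mov10* Deletion, against 0.316, 0.275 and 0.466 CPM in WT. The first group did not overlap between genotypes and the second did. Neither was called, with log2 fold changes of -0.41 (SE 0.14, limma-trend adjusted p = 0.143) and -0.37 (SE 0.36, adjusted p = 0.557), and the balance between them did not pass limma's usage test (adjusted p = 0.944).

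BDNF is the ligand of TrkB and is known for its part in the growth of dendrites and in synaptic plasticity. *Bdnf* (chromosome 2, 109505045 to 109557475, plus strand) had 16.3, 15.2 and 14.4 CPM in *Mov10* Deletion, against 16.3, 16.4 and 14.5 CPM in WT. The groups overlapped. The log2 fold change was -0.08 (SE 0.06, limma-trend adjusted p = 0.365), and the 95% interval of the fold, 0.860 to 1.04, included 1.

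*Bdnf* has separate promoters, each with its own first exon spliced to a shared coding exon, and the roman numerals used here follow the order of the annotated first exons. The deposited tables list 11 *Bdnf* transcripts from 8 such promoters. Transcripts from promoters IV and VI held most of the counts, and their upstream windows are shown because the values below turn on them. Each window is the 150 bases that end just before the annotated start, 5′ to 3′, and capitals mark CGTCA, the short core of the cyclic AMP response element through which CREB acts.
Promoter IV (chr2:109522631-109522780, plus strand): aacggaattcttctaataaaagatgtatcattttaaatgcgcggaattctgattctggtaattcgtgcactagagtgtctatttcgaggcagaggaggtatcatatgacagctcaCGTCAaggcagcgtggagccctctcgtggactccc
Promoter VI (chr2:109523758-109523907, plus strand): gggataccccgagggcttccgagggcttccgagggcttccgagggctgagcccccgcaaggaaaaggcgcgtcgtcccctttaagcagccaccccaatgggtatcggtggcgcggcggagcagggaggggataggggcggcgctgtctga

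The letters CGTCA, searched on both strands (TGACG on the other), stand 35 bases before the start of promoter IV and were not found in the window of promoter VI. Among 21770 windows of the same length before the canonical starts of protein-coding genes, 13.9% held this core on either strand. The palindromic element TGACGTCA, which contains the core on both strands, was in 1.48% of those windows and the E-box CACGTG in 4.49%, and neither was in the 2 *Bdnf* windows. These are matches of letters only.

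Promoter IV, known for its response to neuronal activity, gave 5.99, 5.58 and 4.41 CPM in *Mov10* Deletion, against 4.33, 5.58 and 4.37 CPM in WT. Promoter VI gave 7.63, 7.43 and 7.34 CPM in *Mov10* Deletion, against 9.27, 7.78 and 7.80 CPM in WT. The *Mov10* Deletion libraries were below the WT libraries for promoter VI, with the nearest values close together, and overlapped with them for promoter IV. Promoter I gave 0.962, 0.606 and 0.432 CPM in *Mov10* Deletion, against 1.08, 0.707 and 0.762 CPM in WT. Promoter II gave 1.67, 1.61 and 1.98 CPM in *Mov10* Deletion, against 1.55, 2.25 and 1.48 CPM in WT. Both overlapped between the groups.

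None of the 14 promoter groups tested in the 6 genes was called by limma-trend, while 3.86% of the 30548 promoter groups tested over all genes were. Of the 14, 4 had an unadjusted p under 0.05 in limma-trend, as had 8105 of the 30548 groups. DESeq2 called 3 of the 14, of which 1 was in *Ntrk2*, 2 were in *Sort1* and none was in *Bdnf*. Over all groups DESeq2 called 1858 higher and 2830 lower. The log2 fold changes were 0.12 (SE 0.17) for promoter IV, -0.21 (SE 0.09, limma-trend adjusted p = 0.194) for promoter VI, -0.52 (SE 0.32) for promoter I and -0.03 (SE 0.24) for promoter II. The share of *Bdnf* counts from promoter IV was 34.7 ± 3.53% in *Mov10* Deletion and 30.2 ± 3.77% in WT, and the share from promoter VI was 48.9 ± 2.02% in *Mov10* Deletion and 52.7 ± 4.75% in WT (mean ± SD of 3 libraries). The exact two-sided permutation p was 0.2 for promoter IV and 0.3 for promoter VI, and 3 libraries against 3 cannot go below 0.1. In limma's test of usage, which called 4.35% of the 7101 genes with several promoter groups, the adjusted p for *Bdnf* was 0.623. The other 4 promoters were close to or at 0: III, VII and VIII reached at most 0.518%, 1.66% and 0.358% of the *Bdnf* counts in any library, and V had no count.

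**Figure D2:**
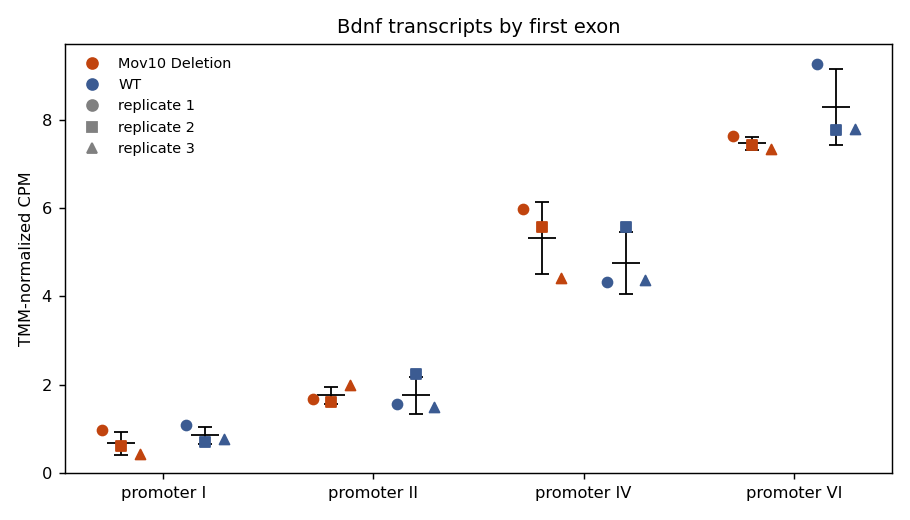
TMM-normalized CPM of *Bdnf* transcripts by promoter, *Mov10* Deletion left of WT at each promoter, symbols for the 3 libraries and bars for the mean ± SD. Promoters IV and VI stand above I and II in both groups, and the groups are apart only at promoter VI, at 7.34 to 7.63 CPM in *Mov10* Deletion and 7.78 to 9.27 CPM in WT.

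TrkB is the main receptor of BDNF in hippocampal neurons. *Ntrk2* (chromosome 13, 58954176 to 59281784, plus strand) had 250.0, 273 and 268 CPM in *Mov10* Deletion, against 237, 242 and 215 CPM in WT. Every *Mov10* Deletion library was above every WT library, by a margin smaller than the spread within a group. This was a log2 fold change of 0.17 (SE 0.04, limma-trend adjusted p = 0.0244), or a fold of 1.12, with a 95% interval of 1.05 to 1.20. With the 2 factors the call held without any 1 library, at log2 fold changes between 0.14 and 0.21. It was lost with the sex score in place of the factors (log2 fold change 0.23, adjusted p = 0.0761) and with counts rebuilt from TPM (0.15, adjusted p = 0.0503). In the fit without factors the log2 fold change was 0.19 and the adjusted p 0.0384, and there the call was lost without *Mov10* Deletion replicate 2 (adjusted p = 0.104) or 3 (0.106) and without WT replicate 1 (0.0622), 2 (0.0557) or 3 (0.111).

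*Ntrk2* makes the kinase receptor and TrkB.T1, a truncated form that is the main TrkB form of astrocytes. Salmon's transcript counts were summed by the stop codon of each annotated transcript. The 2 forms share 465 residues, after which the kinase form has 356 residues of its own and T1 has 11. The last shared exon ends at position 59026076 of chromosome 13, and the coding bases that follow come from an exon at 59133616 in the kinase form and at 59079837 in T1, where they run into the stop codon. The 2 junctions are shown 5′ to 3′ because the 2 coding sequences diverge there, with the shared bases in lower case and the bases of each form in capitals.
Ntrk2 kinase form: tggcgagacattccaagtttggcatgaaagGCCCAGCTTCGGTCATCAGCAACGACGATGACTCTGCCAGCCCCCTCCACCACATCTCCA
Ntrk2 T1 form: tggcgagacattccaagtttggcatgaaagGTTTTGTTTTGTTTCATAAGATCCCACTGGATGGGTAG

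The kinase form had 169, 198 and 187 CPM in *Mov10* Deletion, against 174, 169 and 159 CPM in WT. T1 had 80.1, 74.6 and 80.0 CPM in *Mov10* Deletion, against 62.4, 72.5 and 55.2 CPM in WT. The groups did not overlap for T1 and did for the kinase form. The log2 fold change was 0.26 (SE 0.09, limma-trend adjusted p = 0.138) for T1 and 0.11 (SE 0.04, adjusted p = 0.122) for the kinase form. Neither was called. None of the 10 stop-codon groups of the 6 genes that could be tested was called by limma-trend, while 6.93% of the 29752 such groups over all genes were. Transcripts without an annotated stop codon were grouped per gene, and among the 10 this holds for Sort1-202, a *Sort1* transcript with a retained intron. Of those 10 groups, 5 had an unadjusted p under 0.05 in limma-trend, as had 8328 of the 29752 groups. DESeq2 called 3 of the 10, and over all groups it called 2096 higher and 2672 lower. DESeq2 called T1 higher (adjusted p = 0.0169), and without *Mov10* Deletion replicate 1 the kinase form was called higher (log2 fold change 0.16, limma-trend adjusted p = 0.0286).

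Per length, the kinase form made up 58.2 ± 2.47% of the TPM of the *Ntrk2* coding forms in *Mov10* Deletion and 59.6 ± 2.26% in WT (mean ± SD of 3 libraries). The difference of -1.36 percentage points had an exact two-sided permutation p of 0.6. In limma's usage test the adjusted p was 0.296, and 4.04% of the 8733 genes with several coding ends were called. A further short form, which ends in the intron after the last shared exon, had 0.815, 0.683 and 0.744 CPM in *Mov10* Deletion, against 0.481, 0.514 and 0.725 CPM in WT, and was not called (log2 fold change 0.48, SE 0.24). The other 4 groups of *Ntrk2* transcripts held at most 26.4 counts in any library and were not tested.

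T1 is the sum of 2 transcripts. Ntrk2-202, which starts at 58955866, had 67.7, 59.6 and 67.5 CPM in *Mov10* Deletion, against 47.8, 57.1 and 43.6 CPM in WT. Ntrk2-204, from the upstream start, had 12.4, 15.0 and 12.6 CPM in *Mov10* Deletion, against 14.7, 15.3 and 11.7 CPM in WT. Only Ntrk2-202 was without overlap, with a log2 fold change of 0.34 (SE 0.11, limma-trend adjusted p = 0.204), against -0.14 (SE 0.12, adjusted p = 0.545) for Ntrk2-204. The kinase transcript Ntrk2-201 had a log2 fold change of 0.07 (SE 0.04, adjusted p = 0.315) and Ntrk2-207 one of 0.54 (SE 0.22, adjusted p = 0.256). None of the 20 transcripts tested in the 6 genes was called by limma-trend, and 0.0148% of the 47165 transcripts tested over all genes were. Of the 20, 4 had an unadjusted p under 0.05 in limma-trend, as had 9705 of the 47165. DESeq2 called 2 of the 20, and over all transcripts it called 1937 higher and 3165 lower. The usage test over transcripts called 5.59% of 10336 genes and gave *Ntrk2* an adjusted p of 0.307.

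Markers of astrocytes, which express T1, differed in both directions. Of 12 astrocyte markers, 3 were called higher and 1 lower in *Mov10* Deletion, against 24.8% called over all genes, and their summed level was 1791 to 1876 CPM in *Mov10* Deletion and 1570 to 1762 CPM in WT. The water channel gene *Aqp4* had 45.2, 40.1 and 37.9 CPM in *Mov10* Deletion, against 16.7, 23.4 and 14.1 CPM in WT (log2 fold change 1.15, limma-trend adjusted p = 0.00285). The intermediate filament gene *Gfap* had 200.4, 183 and 218 CPM in *Mov10* Deletion, against 125, 142 and 110 CPM in WT (log2 fold change 0.64, adjusted p = 0.00367). The third gene was *S100b*, below 1 CPM in all 6 libraries. The lower gene was *Atp1b2*, which encodes a subunit of the sodium pump, with 135, 136 and 137 CPM in *Mov10* Deletion, against 156, 157 and 145 CPM in WT (log2 fold change -0.19, adjusted p = 0.0105). The glutamate transporter gene *Slc1a2*, the most abundant of the list, was not called, with a log2 fold change of 0.04. The part of astrocyte content in the *Ntrk2* difference was not tested.

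**Figure D3:**
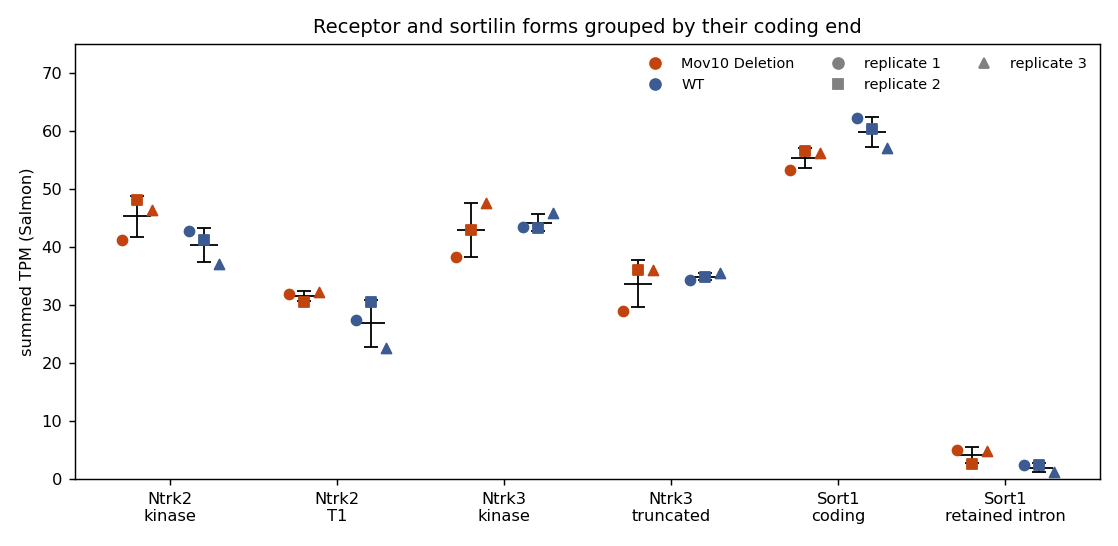
Summed TPM of *Ntrk2*, *Ntrk3* and *Sort1* transcripts grouped by stop codon, *Mov10* Deletion left of WT for each group, symbols for libraries and bars for the mean ± SD. The retained-intron transcript of *Sort1* has no annotated stop codon and is shown on its own. The groups are apart for *Ntrk2* T1 (30.6 to 32.3 TPM in *Mov10* Deletion, 22.6 to 30.5 TPM in WT) and for both *Sort1* groups, and overlap for the *Ntrk2* kinase form and both *Ntrk3* forms.

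TrkC is the receptor of NT-3. *Ntrk3* (chromosome 7, 77825707 to 78387760, minus strand) had 361, 417 and 436 CPM in *Mov10* Deletion, against 398, 404 and 438 CPM in WT. *Mov10* Deletion replicate 1 was the lowest of all libraries and the other values were interspersed. The log2 fold change was 0.00 (SE 0.04, limma-trend adjusted p = 0.972), with a 95% interval of the fold of 0.937 to 1.07.

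The kinase and truncated forms of TrkC share 528 residues and diverge after position 78005775 of chromosome 7. The kinase form continues at 77910162 with 297 residues of its own and the truncated form at 77954174 with 84. Both kinase forms, of *Ntrk2* and *Ntrk3*, hold the motif HRDLATRN of the catalytic loop and both truncated forms lack it. The junctions are shown as for *Ntrk2*.
Ntrk3 kinase form: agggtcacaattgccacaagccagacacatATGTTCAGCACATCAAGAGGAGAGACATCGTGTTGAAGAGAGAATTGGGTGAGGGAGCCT
Ntrk3 truncated form: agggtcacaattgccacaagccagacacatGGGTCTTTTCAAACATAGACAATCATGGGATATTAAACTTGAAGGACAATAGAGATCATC

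The kinase form of *Ntrk3* had 305, 345 and 367 CPM in *Mov10* Deletion, against 332, 337 and 367 CPM in WT. The truncated form had 56.0, 71.3 and 68.9 CPM in *Mov10* Deletion, against 64.9, 67.3 and 70.8 CPM in WT. *Mov10* Deletion replicate 1 was lowest for both, and the groups overlapped. The log2 fold changes were -0.01 (SE 0.04) for the kinase form and -0.03 (SE 0.04) for the truncated form. The kinase form made up 56.0 ± 1.39% of the TPM of the *Ntrk3* coding forms in *Mov10* Deletion and 55.8 ± 0.465% in WT (mean ± SD of 3 libraries), with an exact two-sided permutation p of 1. The adjusted p of limma's usage test was 0.917.

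TrkC kinases with an insert in the kinase domain are known to signal less than the form without it. One such transcript in the tables has 14 more residues from 1 exon at chr7:77853851-77853892 (minus strand), shown in capitals between 20 flanking bases on each side.
Ntrk3 insert of 14 residues: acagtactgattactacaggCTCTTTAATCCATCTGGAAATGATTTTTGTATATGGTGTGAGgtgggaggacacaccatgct

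The transcript with this insert had 1.56, 2.01 and 1.89 CPM in *Mov10* Deletion, against 1.74, 1.64 and 1.90 CPM in WT, and the groups overlapped. Another, with an insert of 39 residues, held at most 13.7 counts in any library. The tables list the transcript with 14 more residues at 2678 bases and Ntrk3-201 at 19703 bases, so reads from most of the shared 3 prime end could be given to Ntrk3-201 alone, and the share of receptors with the insert was not computed. Another 13 *Ntrk3* transcripts have no annotated stop codon and had at most 32.6 counts together in any library.

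p75NTR binds all neurotrophins and takes part in both survival and death of developing neurons. *Ngfr* (chromosome 11, 95459638 to 95478561, minus strand) has 1 transcript in the tables and had 3.10, 5.09 and 2.90 CPM in *Mov10* Deletion, against 4.23, 3.61 and 4.56 CPM in WT. *Mov10* Deletion replicate 2 was the highest and the other *Mov10* Deletion libraries the lowest of all 6. The log2 fold change was -0.16 (SE 0.19, limma-trend adjusted p = 0.576), and the 95% interval of the fold, 0.664 to 1.21, was the widest of the 6 genes. Without *Mov10* Deletion replicate 2 the gene was called lower (log2 fold change -0.43, adjusted p = 0.0263), and without *Mov10* Deletion replicate 3 the value changed sign (0.04, adjusted p = 0.834). Cholinergic neurons of the basal forebrain express much *Ngfr*, and their defining gene *Chat* had at most 0.0131 CPM in any library. *Foxd3*, a gene of Schwann cell precursors, was at 0 in all 6 libraries.

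Sortilin forms a receptor for proneurotrophins with p75NTR and sorts BDNF to the regulated secretory pathway. *Sort1* (chromosome 3, 108191285 to 108268842, plus strand) had 186, 195 and 193 CPM in *Mov10* Deletion, against 207, 204 and 196 CPM in WT. The groups did not overlap in CPM, with the highest *Mov10* Deletion library just below the lowest WT library, and they overlapped in TPM. *Sort1* had a log2 fold change of -0.09 (SE 0.03, limma-trend adjusted p = 0.0861) and the 95% interval of the fold was 0.891 to 0.991. *Sort1* was called lower without *Mov10* Deletion replicate 2 (adjusted p = 0.0158), without *Mov10* Deletion replicate 3 (0.0489) and without WT replicate 3 (0.0357), at log2 fold changes of -0.10 in each case. *Sort1* lies 3.47 Mb from *Mov10*, so that an effect of the genotype and of sequence linked to the targeted locus cannot be told apart.

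The *Sort1* reads fell into 2 parts whose values differed in opposite directions. The coding transcripts had 175, 189 and 182 CPM in *Mov10* Deletion, against 201, 199 and 194 CPM in WT. The transcript with a retained intron, Sort1-202, had 11.6, 6.19 and 11.2 CPM in *Mov10* Deletion, against 5.44, 5.85 and 2.84 CPM in WT. Neither part overlapped between the groups. The log2 fold change was -0.14 (SE 0.04, limma-trend adjusted p = 0.0751) for the coding transcripts and 0.82 (SE 0.23, adjusted p = 0.0848) for the retained intron, and neither was called. DESeq2 called both, with adjusted p of 0.0206 for the coding transcripts and 0.00333 for the retained intron. With limma-trend the retained intron was also called without *Mov10* Deletion replicate 1 (log2 fold change 0.72, adjusted p = 0.0240), without *Mov10* Deletion replicate 2 (1.11, adjusted p = 0.0176) and without WT replicate 3 (0.68, adjusted p = 0.0270). The usage test between the parts gave an adjusted p of 0.161.

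Sort1-202 runs from 108262783 to 108268754 and begins 5 bases before an exon of the coding transcript Sort1-203 that Sort1-201 skips. The exon at chr3:108262788-108262886 adds 33 residues and is shown in capitals between 20 flanking coding bases on each side, because reads in it can be assigned to either Sort1-202 or Sort1-203.
Sort1 exon of Sort1-203: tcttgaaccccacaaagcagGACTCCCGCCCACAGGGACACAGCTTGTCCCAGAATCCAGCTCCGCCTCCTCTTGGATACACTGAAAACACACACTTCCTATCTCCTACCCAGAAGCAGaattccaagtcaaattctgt

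Sort1-203 had 67.7, 74.7 and 68.4 CPM in *Mov10* Deletion, against 85.3, 82.0 and 69.8 CPM in WT. Sort1-201 had 107, 115 and 114 CPM in *Mov10* Deletion, against 116, 117 and 124 CPM in WT. The groups overlapped for Sort1-203, where WT replicate 3 lay within the *Mov10* Deletion values, and not for Sort1-201. The log2 fold changes were -0.24 (SE 0.06, limma-trend adjusted p = 0.140) for Sort1-203 and -0.09 (SE 0.04, adjusted p = 0.266) for Sort1-201. The form with the exon made up 38.2 ± 0.959% of the coding *Sort1* TPM in *Mov10* Deletion and 39.6 ± 3.39% in WT (mean ± SD of 3 libraries), with an exact two-sided permutation p of 0.5.

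**Figure D4:**
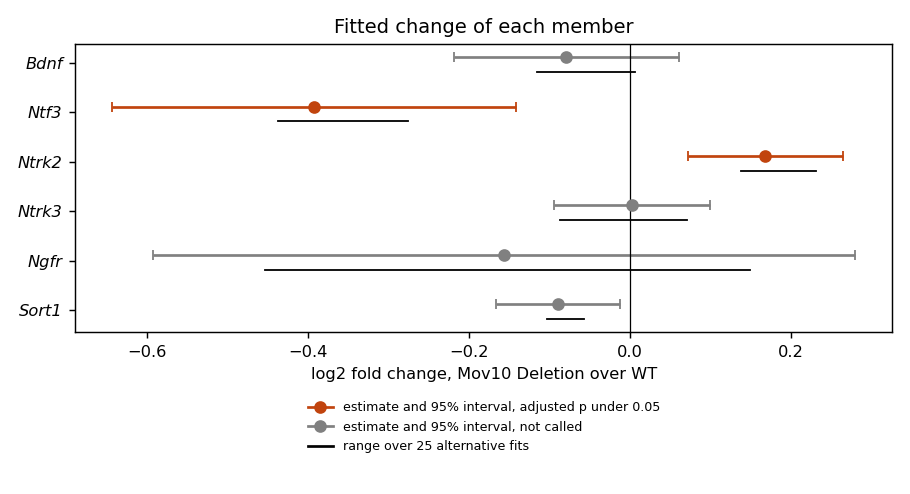
Log2 fold change, *Mov10* Deletion over WT, of each gene, with its 95% interval from the limma-trend fit (circles) and the range of the value over 25 alternative fits (black lines). The intervals of *Ntrk2*, at 0.17, and *Ntf3*, at -0.39, lie clear of 0, and that of *Sort1*, at -0.09, ends just below it although the adjusted p is above 0.05.

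*Ntf5*, which encodes NT-4, the other TrkB ligand, had at most 0.168 CPM in any library and did not reach the level for a test.

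Genes that act with these ligands and receptors were taken as 5 lists of 99 genes in all, of which 95 were tested. Of these, 9 were called higher and 22 lower, 32.6% of those tested against 24.8% of all genes, and the median log2 fold change was -0.05, against 0.01 over all tested genes. The lists were described and not tested as sets. Their count of calls was 20 without WT replicate 2 and 54 without *Mov10* Deletion replicate 2, with the 2 factors in the fit. The calls over all genes shifted as well. They were 1547 higher and 1065 lower of 16642 genes without WT replicate 2. Without *Mov10* Deletion replicate 2 they were 2780 higher and 2967 lower of 16605 genes.

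Among the other ligands, receptors and co-receptors, 1 of 10 tested genes was called higher and none lower, and the median log2 fold change was 0.03. The called gene was *Sorl1*, a sorting receptor of the sortilin family, with 51.0, 49.4 and 46.4 CPM in *Mov10* Deletion, against 39.1, 44.9 and 40.9 CPM in WT (log2 fold change 0.24, SE 0.06, limma-trend adjusted p = 0.0278). *Sorcs2*, of the same family and a partner of p75NTR, had 60.9, 64.7 and 62.6 CPM in *Mov10* Deletion, against 58.9, 56.8 and 57.7 CPM in WT, and was not called (log2 fold change 0.12, adjusted p = 0.0582). *Islr2* was not called either (log2 fold change -0.09, adjusted p = 0.160). The other sortilin relatives of the list, *Sorcs1* and *Sorcs3*, overlapped between the groups and were not called, with log2 fold changes of 0.16 and 0.02, and were named after their values were seen.

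Of 14 tested genes for the processing, sorting and release of neurotrophins, 2 were called higher and 3 lower, and the median log2 fold change was -0.08. *Cadps2*, which promotes the release of dense-core vesicles that carry BDNF, had 28.0, 29.9 and 26.1 CPM in *Mov10* Deletion, against 21.2, 22.2 and 18.3 CPM in WT (log2 fold change 0.40, SE 0.07, limma-trend adjusted p = 0.00847). *Pcsk6*, a proprotein convertase, had 13.8, 12.3 and 12.7 CPM in *Mov10* Deletion, against 15.3, 18.2 and 16.4 CPM in WT (log2 fold change -0.36, adjusted p = 0.0124). *Plat*, which encodes tissue plasminogen activator, a protease of the pathway that cleaves proBDNF outside the cell, and *Serpini1*, which encodes its inhibitor neuroserpin, were both lower, with log2 fold changes of -0.28 (adjusted p = 0.00825) and -0.17 (adjusted p = 0.0141). The convertase, the protease and the inhibitor each had all *Mov10* Deletion libraries below all WT libraries.

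Of 35 tested Trk adaptor and signalling genes, 1 was called higher and 10 lower, with a median log2 fold change of -0.07. The docking proteins *Gab2* and *Gab1* were lower. *Gab2* had 68.4, 70.1 and 69.4 CPM in *Mov10* Deletion, against 81.3, 82.9 and 91.3 CPM in WT (log2 fold change -0.26, SE 0.04, limma-trend adjusted p = 0.00354), and *Gab1* had a log2 fold change of -0.22 (adjusted p = 0.00915). *Crk*, an adaptor, fell as well (log2 fold change -0.19, adjusted p = 0.0102). The 1 higher gene was *Shc2*, an adaptor of the Shc family, with 63.6, 68.7 and 72.0 CPM in *Mov10* Deletion, against 58.3, 52.8 and 49.1 CPM in WT (log2 fold change 0.31, SE 0.04, adjusted p = 0.00350). *Frs2* and *Plcg1*, which bind docking tyrosines of Trk receptors, were not called, with log2 fold changes of 0.03 and -0.02, and were named after their values were seen.

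Of 19 tested p75NTR adaptor and shedding genes, 2 were called higher and 6 lower, with a median log2 fold change of -0.07. *Irak1*, a kinase recruited to p75NTR, had 57.7, 56.6 and 61.2 CPM in *Mov10* Deletion, against 44.6, 44.6 and 42.1 CPM in WT (log2 fold change 0.40, SE 0.05, limma-trend adjusted p = 0.00208). *Adam10*, a sheddase of membrane receptors, had 147, 154 and 150 CPM in *Mov10* Deletion, against 172, 173 and 178 CPM in WT (log2 fold change -0.20, SE 0.03, adjusted p = 0.00617). *Ncstn* and *Aph1a*, subunits of gamma-secretase, which cuts the fragment of p75NTR that is left in the membrane, were lower, with log2 fold changes of -0.22 (adjusted p = 0.00571) and -0.17 (adjusted p = 0.0220). *Irak1* and *Adam10* were called in all 25 alternative fits.

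Of 17 tested regulators of *Bdnf* transcription, 3 were called higher and 3 lower, with a median log2 fold change of 0.02. *Creb1*, which encodes CREB, had 113, 101 and 109 CPM in *Mov10* Deletion, against 94.4, 86.0 and 76.6 CPM in WT (log2 fold change 0.27, SE 0.04, limma-trend adjusted p = 0.00429). *Crtc1*, which encodes a coactivator of CREB, had 149, 169 and 171 CPM in *Mov10* Deletion, against 191, 186 and 201 CPM in WT (log2 fold change -0.22, SE 0.04, adjusted p = 0.00695). The mRNAs of *Creb1* and *Crtc1* thus differed in opposite directions. *Crtc2*, of the same list and named after its values were seen, was not called (log2 fold change 0.10, limma-trend adjusted p = 0.279). *Srf*, a transcription factor induced through Trk signalling, was higher (log2 fold change 0.27, adjusted p = 0.00702), and *Usf1*, which binds E-boxes, was lower (log2 fold change -0.20, adjusted p = 0.00794). *Npas4*, an activity-induced factor named after its values were seen, had 1.90, 1.69 and 2.10 CPM in *Mov10* Deletion, against 0.987, 1.11 and 0.963 CPM in WT (log2 fold change 0.86, SE 0.16, adjusted p = 0.00909). *Bdnf* promoter IV was not called in any of its 27 alternative fits, and the 95% interval of its fold in the limma-trend fit was 0.800 to 1.48. Binding of CREB was not measured, and a link between these regulators and *Bdnf* was not tested.

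**Figure D5:**
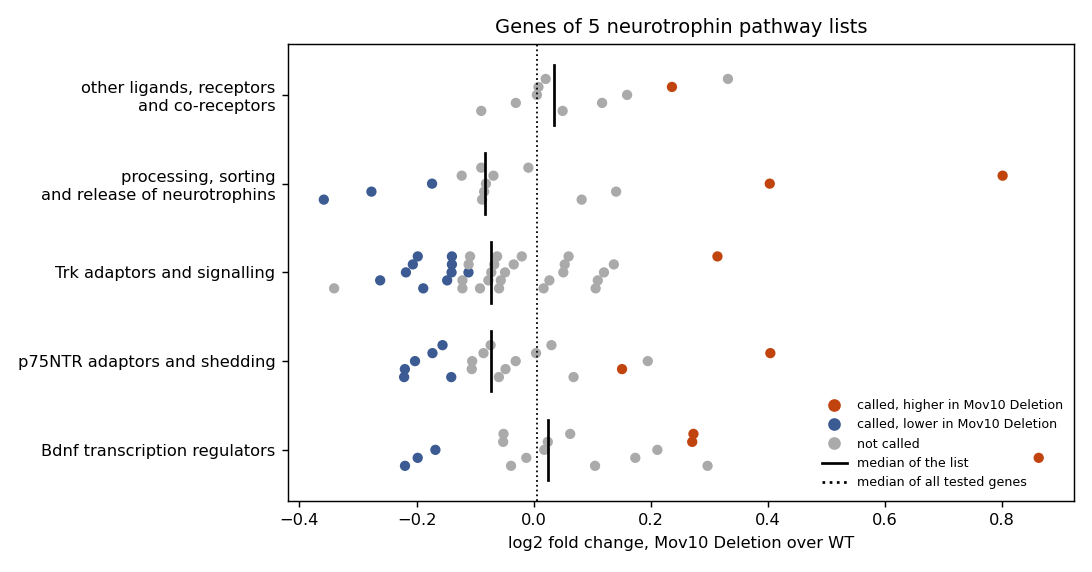
Log2 fold change, *Mov10* Deletion over WT, of each tested gene in the 5 pathway lists, coloured by its call, with the median of each list (solid line) and of all tested genes (dotted line). Most genes lie between -0.3 and 0.3, and 10 of the 11 called genes among Trk adaptors and signalling are lower.

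The genes whose log2 CPM followed each of the 6 most closely over the 6 libraries were found among all tested protein-coding genes by Pearson r. This is a description, since the libraries differ in genotype, depth and sex makeup, and r can follow any of these. For *Ntrk2* they were *Cntnap3*, *Sptbn1* and *Tango2*, at r between 0.996 and 0.998. For *Ntf3* they were *Fam124b*, *Parpbp* and *Cdpf1*, at r between 0.988 and 0.994. For *Sort1* they were *Tmem184c*, *Mmp15* and *Smarca1*, at r between 0.981 and 0.993. *Bdnf* was followed by *Meak7*, *Ipo7* and *Lrrc34* (r between 0.967 and 0.977), *Ngfr* by *Usb1*, *Pphln1* and *Zwint* (0.976 to 0.979) and *Ntrk3* by *Acr*, *Gm20518* and *Muc2* (0.993 to 0.994). None of the 6 genes was among the 3 nearest of another. As the highest of many r values over 6 libraries, these values are high by selection and do not show shared regulation. Mean levels of the matched genes ran from 0.834 CPM for *Fam124b* to 863 CPM for *Sptbn1*, and the 3 matched to *Ntrk3* had 1.8, 1.5 and 1.2 CPM.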

How the data were processed

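The authors prepared stranded mRNA libraries from pooled P0 hippocampi, 3 of *Mov10* Deletion and 3 of WT, grouped here by sample title. The authors quantified reads with Salmon 1.4.0 on GRCm39, per the labels and methods. The sources used here do not give the annotation release. The deposited files hold estimated counts per transcript, which the authors left unnormalized, and TPM values that the authors' run corrected for effective length and depth.

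Transcripts were matched by identifier to GENCODE M39 (137570 of 139225; the unmatched held 0.589 to 0.600% of counts). Of the 48 transcripts of the 6 genes, 24 have another length in M39 than in the files. Counts were summed by gene, by coding end and by promoter (starts within 200 bases), rounded to whole numbers, filtered (at least 0.25 CPM in 3 libraries), TMM-normalized (edgeR 4.0.16) and tested with limma-trend (limma 3.58.1, R 4.3.3, prior count 2), genotype and 2 RUVs factors from the gene counts, written out in R because the study names RUVSeq but not its function. This left 2 residual and 5.86 prior degrees of freedom, and p-values measure only the spread between pools that the factors left. Printed CPM use TMM and are not corrected for the factors. Usage was tested with diffSplice and DESeq2 (1.42.0) was an alternative. Shares were compared by exact permutation. The scripts were tested on simulated data. Intervals cover the fit alone, and depth limits genes far below 1 CPM.

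The 6 genes and all lists were chosen with earlier results of these data known. Named genes were the 6, 4 of each list with the smallest p, *Ntf5*, *Mov10*, and the 3 genes most like each of the 6, plus those said to be named after their values were seen. Marker genes were named only beside a result they touch, *Zbtb20* for its part in a sum and *Xist* for the sexes of the pools, also after their values were seen. Some further genes that this rule takes are not reported here. Alternatives covered the factors, tests, scaling, filter, prior count, pairing and each library.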

Additional observations from a re-analysis of the deposited data

How the results depend on the processing

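*Ntf3* kept its direction in every alternative, and its call was lost with the sex score (-0.40), length-scaled TPM counts (-0.39), no filter on low counts (-0.37) and the replicate block (-0.37, adjusted p = 0.0514). Leaving out 1 library gave -0.437 to -0.275. *Ntrk2* kept its direction and lost its call with the sex score (0.23), length-scaled counts (0.15) and no filter (0.19), and gave 0.138 to 0.23 without 1 library. *Ntrk3*, near 0, turned negative without factors (-0.035), with 1 RUVs factor (-0.0148), RUVr factors (-0.036), edgeR (-0.0317), DESeq2 (-0.0333), length-scaled counts (-0.0296), no filter (-0.0382), a filter at 1 CPM (-0.0004659) and the replicate block (-0.035), and ranged from -0.087 to 0.071 without 1 library. *Ngfr* was 0.15 with the sex score and -0.453 to 0.0388 without 1 library. *Sort1* gave -0.103 to -0.0574 and *Bdnf* -0.116 to 0.00587 without 1 library. The *Ntrk3* kinase form was 0.0119 with the sex score, 0.00476 with upper-quartile scaling and -0.092 to 0.0518 without 1 library, the truncated form 0.059 with the sex score and -0.131 to 0.0532 without 1 library, and *Bdnf* promoter II -0.13 to 0.187 without 1 library. The causes were not tested.

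Of the 6 genes, 0 were called with the sex score, 0 with length-scaled counts, 0 with no filter, 1 with the replicate block and 0 to 4 without 1 library. Stop-codon groups called numbered 1 with RUVr, 3 with DESeq2, 1 with the filter at 1 CPM and 0 to 2 without 1 library, and transcripts 2 with DESeq2. Over all stop-codon groups, RUVr called 1987 higher and 2308 lower, DESeq2 2096 and 2672, and the filter at 1 CPM 1191 and 1372 of 22931. Fits without 1 library called 212 to 1963 of all stop-codon groups higher and 112 to 2630 lower. Promoter groups of the 6 genes numbered 1 with RUVr, 3 with DESeq2, 1 with the filter at 1 CPM and 0 to 2 without 1 library. Over all promoter groups, RUVr called 1294 higher and 1868 lower, DESeq2 1858 and 2830, and the filter at 1 CPM 867 and 1065 of 22242. Fits without 1 library called 0 to 870 of all promoter groups higher and 0 to 1658 lower. The pathway lists had 11 calls with the sex score, 5 with no filter and 14 to 54 without 1 library. The alternatives for the lists and for these promoter groups, and the *Sort1* exon share by counts (-1.38 points, as in TPM), were chosen after seeing the data. Over all genes, the sex score gave 770 higher and 597 lower, no filter 363 and 388 of 29469 genes, and upper-quartile scaling 2326 and 1506, against 2105 and 2051. Length-scaled counts gave 1567 higher and 1497 lower and the replicate block 1864 and 1573. Fits without 1 library gave 995 to 2797 genes higher and 770 to 2967 lower.

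The same-numbered libraries were not paired by the labels, and their deviations correlated at 0.012, -0.071 and 0.043. The replicate block therefore pairs numbers only. Without 1 library and with 2 factors, 1 residual degree of freedom is left. Low counts limit *Ngfr*, *Ntf3* and the rare promoters.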
